A study of Homo sapiens with 6 samples.

Results

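The alpha- and beta-tubulin isotype genes were taken by gene name from the deposited gene table of the series, and 10 of its 20745 genes were members: 4 alpha isotypes (TUBA1A, TUBA1B, TUBA1C and TUBA4A) and 6 beta isotypes (TUBB, TUBB2A, TUBB2B, TUBB3, TUBB4B and TUBB6). The cells were AB 8/13, a conditionally immortalized human podocyte line that divides at a permissive temperature and was differentiated at a restrictive one before use. There were 3 control cultures and 3 cultures given 1 µM levamisole, an anthelminthic that is also a steroid-sparing drug in nephrotic syndrome, each for 24 h, with 3 different passages in each group; whether the groups shared their passages is not stated. The sample labels place both groups in medium without serum, whereas the study's methods place the control cultures in complete medium. Libraries were made with a CEL-seq variant, which primes the cDNA from the poly(A) tail and so counts transcripts near their 3′ end.

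The value given for each gene is the authors' base mean, that is the normalized read count as a mean over every library in the authors' fit, treated and untreated together. The table used here has no value per culture, so no value below has a spread between replicates, the sequencing depth is unknown, and levamisole was not compared with control. Levels of different genes are therefore described, not tested. A bulk value also cannot tell fewer cells that use a gene from less RNA per cell.

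Alpha- and beta-tubulin pair into the dimer from which microtubules are built. Humans carry several genes for each, and the proteins they encode are alike over most of their length and differ mainly in an acidic carboxy-terminal tail that reaches out from the microtubule surface, where motors, binding proteins and modifying enzymes act. In podocytes, microtubules fill the cell body and major processes, whereas foot processes rest on actin.

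The ends of the 6 beta coding sequences are shown because they encode these tails, where the isotypes differ. Each run gives the last 60 coding bases and the stop codon on GRCh38, read from the GENCODE 44 canonical transcript, with the final codon before the stop in capitals. Each lies within a single exon, and each of these transcripts has 4 exons.
TUBB (chr6:30724335-30724397, plus strand): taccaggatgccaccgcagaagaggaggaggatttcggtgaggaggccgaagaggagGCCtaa
TUBB2A (chr6:3153863-3153925, minus strand): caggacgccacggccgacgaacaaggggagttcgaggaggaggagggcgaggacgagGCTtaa
TUBB2B (chr6:3224751-3224813, minus strand): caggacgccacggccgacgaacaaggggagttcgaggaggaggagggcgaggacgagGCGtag
TUBB3 (chr16:89935742-89935804, plus strand): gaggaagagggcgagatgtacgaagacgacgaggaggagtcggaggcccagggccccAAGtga
TUBB4B (chr9:137243494-137243556, plus strand): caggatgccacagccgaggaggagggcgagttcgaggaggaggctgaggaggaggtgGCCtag
TUBB6 (chr18:12326068-12326130, plus strand): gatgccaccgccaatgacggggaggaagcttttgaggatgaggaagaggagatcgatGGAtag

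TUBB2A and TUBB2B were 98.3% identical over this stretch, while TUBB3, the class found mainly in neurons, and TUBB6 were 44.4% identical. Codons for the acidic residues, aspartate and glutamate, made up 11 of the 20 codons in each of the 6 genes. The final codons differ too, with a codon for alanine in TUBB, TUBB2A, TUBB2B and TUBB4B, for lysine (AAG) in TUBB3 and for glycine (GGA) in TUBB6.

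The starts of the coding sequences are shown because tubulin mRNA is regulated through them. The first 4 codons of TUBA1B are atgCGTGAGTGC and those of TUBB are atgAGGGAAATC, with the codons after the start codon in capitals. These residues are what the factor TTC5 reads on the ribosome when tubulin mRNAs are degraded in cells with an excess of free tubulin, a feedback known as autoregulation. TUBA1A and TUBA1C share the 12 bases of TUBA1B, and TUBB4B shares those of TUBB. The starts of TUBA4A, TUBB2A, TUBB2B, TUBB3 and TUBB6 differ from these in bases but encode the same residues as the rest of their family. Over whole coding sequences, the 6 alpha pairs were 84.4% to 97.2% identical (median 90.8%) and the 15 beta pairs 81.0% to 98.1% (median 86.0%). The 24 pairs of an alpha with a beta gene were 55.1% to 58.1% identical.

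Each family was led by a single gene. TUBB, the broadly used class I beta-tubulin, had the highest base mean of the 10 genes, 26055, and TUBA1B, a broadly used alpha-tubulin, followed with 17112. These genes held 89.5% of the summed base mean of the 10 members, 43167 of 48244. TUBB was 1.52 times as high as TUBA1B by base mean and 1.34 times as high per kb of exonic length. Exonic length is here the union of a gene's exons, 4071 bases for TUBB and 3574 for TUBA1B. Their canonical transcripts have 2515 and 1627 bases, so the order of these genes depends on the length used. As given below, 53.5% of the end sequence of TUBA1B was found in no other gene, against 100% for TUBB. Whether uncounted reads affect this order was not tested.

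Among the alpha genes, TUBA1B took 84.6% of the summed base mean. TUBA1A (ENSG00000167552), the alpha isotype best known from developing neurons, had a base mean of 1729, which was 8.55% of the alpha sum. TUBA1C (ENSG00000167553) had 1286, or 6.36%, and TUBA4A (ENSG00000127824), which is abundant in platelets and in the adult brain, had 95.7, or 0.473%. The step from TUBA1B to TUBA1A was 9.90-fold by base mean and 10.6-fold per kb, whereas TUBA1A and TUBA1C lay within 1.34-fold of each other by base mean. The 3 TUBA1 genes lie close together on chromosome 12, TUBA1B from 49127782 to 49131397, TUBA1A from 49184686 to 49189080 and TUBA1C from 49188736 to 49274600 on GRCh38. TUBA1B and TUBA1A are on the minus strand and TUBA1C on the plus strand.

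Among the beta genes, TUBB (ENSG00000196230, chromosome 6, 30717435 to 30725538) took 93.0% of the summed base mean. TUBB6 (ENSG00000176014), the class V isotype, whose mRNA is low in neurons and which loosens microtubule networks when overexpressed, had a base mean of 1265, or 4.51% of the beta sum. TUBB4B (ENSG00000188229), a class IV isotype present in most tissues and in cilia, had 470 (1.68%). The neighbouring genes of class II, TUBB2A (ENSG00000137267) and TUBB2B (ENSG00000137285), had 149 (0.533%) and 81.4 (0.291%). They lie on the minus strand of chromosome 6 at 3153497 to 3157544 and 3223324 to 3231730. TUBB3 (ENSG00000258947) had a base mean of 0.239, the lowest of the members and 340 times below that of TUBB2B.

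**Figure D1:**
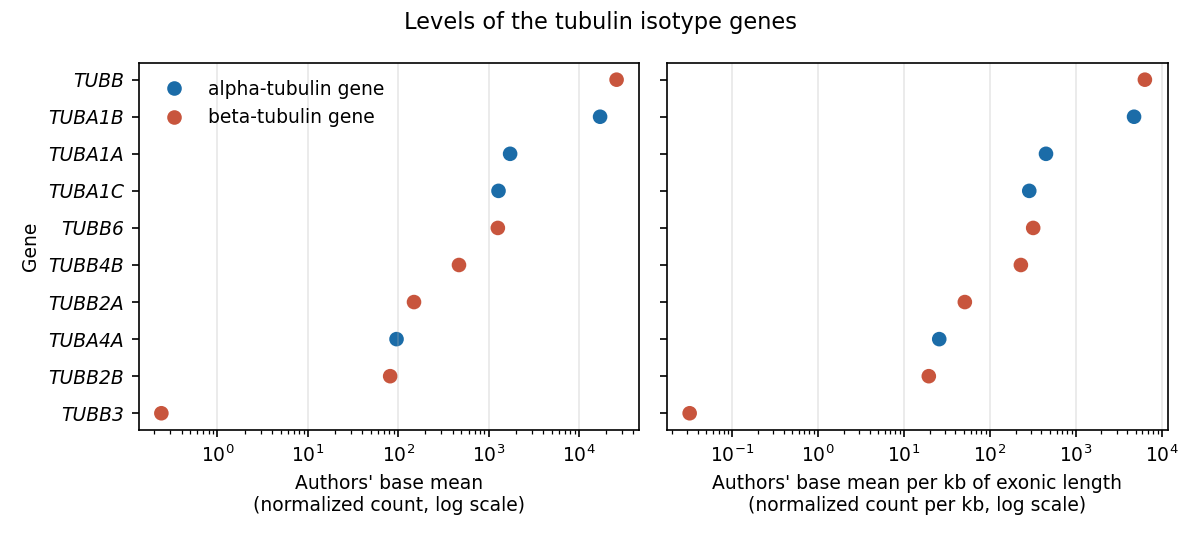
Level of each of the 10 tubulin isotype genes as the authors' base mean (left) and as base mean per kb of exonic length (right), on log axes, with alpha genes in blue and beta genes in red. A point is the authors' mean over all their libraries and has no error bar, since values per culture were not used; TUBB and TUBA1B stand far to the right of the rest and TUBB3 far to the left on both scales.

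Since the cDNA is primed from the poly(A) tail, a 3′-end count should not scale with the length of the transcript, so the base mean was the main scale. Levels per kb of exonic length, the union of all exons of a gene, were given as an alternative for counts that scale with that length. The canonical transcripts are shorter, and levels per kb of their length are not given. The order of the 10 genes was the same on both scales except for TUBB6 and TUBA1C, which changed places. By base mean TUBA1C was 1.02 times as high as TUBB6, and per kb TUBB6, at 321, was 1.11 times as high as TUBA1C, at 289. TUBA4A and TUBB2B were also close, with 95.7 and 81.4 by base mean and 25.9 and 19.6 per kb. Per kb, TUBA1C and TUBB4B were 1.25-fold apart, less than TUBA4A and TUBB2B at 1.32-fold. Without values per culture, whether any of these neighbours differ beyond the spread between cultures was not tested.

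**Figure D2:**
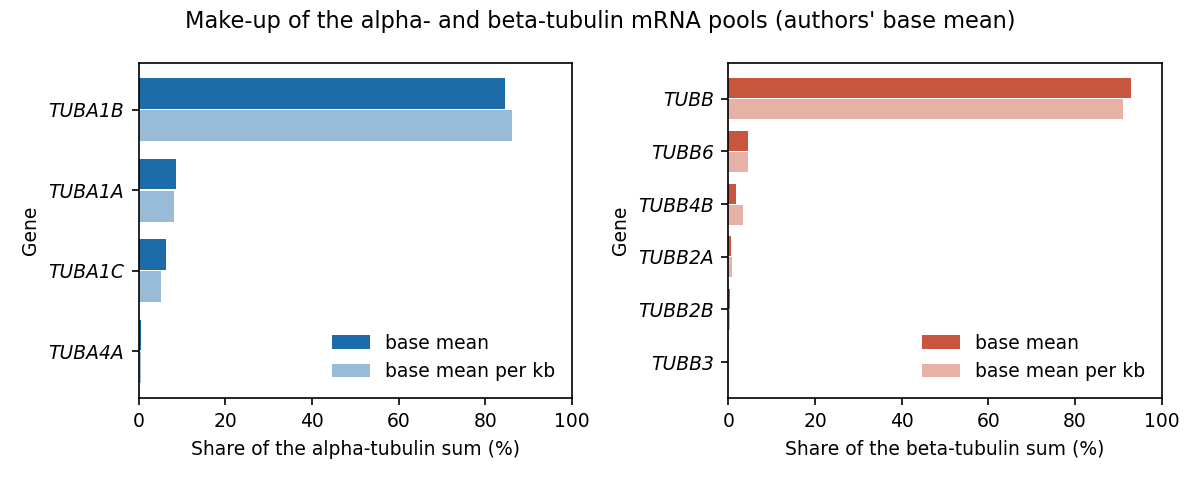
Share of each gene in the summed level of the alpha (left, 4 genes) and beta (right, 6 genes) members, in percent, with dark bars for the authors' base mean and light bars for base mean per kb of exonic length. TUBA1B holds 84.6% of the alpha sum and TUBB 93.0% of the beta sum by base mean, and 86.2% and 91.1% per kb.

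The proteins are used in equal numbers in the dimer, but the summed base means of the families were not equal. The alpha members summed to 20223 and the beta members to 28021, a ratio of 0.722. Per kb of exonic length the ratio was 0.791. That scale uses the union of exons, and the ratio depends on the length used. The canonical transcripts of TUBA1B and TUBB have 1627 and 2515 bases, against exonic lengths of 3574 and 4071. TUBA1B, the main part of the alpha sum, had 53.5% of its end sequence found in no other gene, against 100% for TUBB. Reads that could not be assigned were left out, and their effect on the ratio was not tested. How many proteins are made per mRNA was not measured.

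The other alpha and beta isotypes added little. Of 9 such genes, 4 had a value in the gene table. TUBB4A, a class IV isotype of the brain, was the highest at 21.3. TUBAL3 had a base mean of 2.27, TUBB1, the beta-tubulin of platelets, 0.793, and TUBA8 0.371. TUBA3C, TUBA3D, TUBA3E, TUBB8 and TUBB8B had no value in it. The annotated tubulin pseudogenes of the table summed to 3.28 in the alpha family (1 gene) and 15.0 in the beta family (4 genes). The members held 99.97% of the alpha sum and 99.87% of the beta sum when these isotypes and pseudogenes were counted in.

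Within the whole table, TUBB ranked 17 and TUBA1B ranked 31 of 20745 genes by base mean. Of the 16 genes above TUBB, 10 were mitochondrial. TUBA1A ranked 378, TUBA1C 564, TUBB6 574 and TUBB4B 1760. TUBB2A, TUBA4A and TUBB2B ranked from 4738 to 6716 and still lay above 67.6% or more of all genes. The median member lay above 94.4% of all genes, and 9 of the 10 exceeded the table's median base mean of 21.8. The 10 members together took 0.760% of the summed base means of all genes, or 1.17% without the 22 mitochondrial genes.

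**Figure D3:**
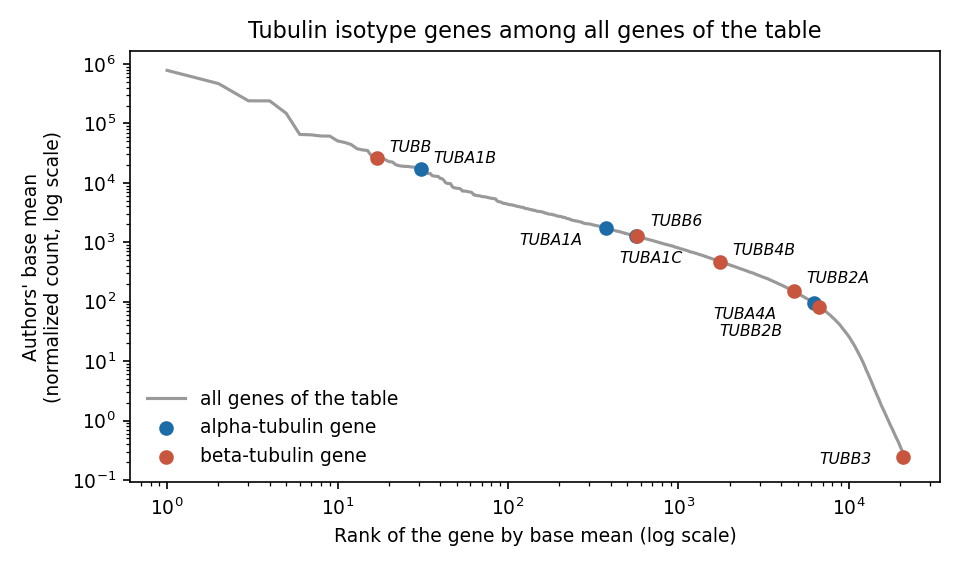
Authors' base mean against rank for all 20745 genes of the table (grey line), with alpha (blue) and beta (red) tubulin genes marked, both axes logarithmic. TUBB (rank 17) and TUBA1B (rank 31) sit near the upper end of the curve and TUBB3 (rank 20731) at its lower end.

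How far a low count reflects the gene depends on whether reads can be assigned to it, since the counting tool by default leaves out reads that map to several places or that fall on more than 1 gene. The last 500 bases of each canonical transcript were cut into 441 overlapping windows of 60 bases, the length of the sequenced read, and looked up in the GENCODE 44 transcripts of all other genes. In 5 of the 10 genes (TUBA1C, TUBA4A, TUBB, TUBB2B and TUBB6) no window occurred in another gene, though over the whole transcript of TUBB2B the share found in no other gene was 45.9%. The share of windows found in no other gene was 78.9% for TUBB4B, 77.3% for TUBA1A, 53.5% for TUBA1B and 45.6% for TUBB2A. Of the windows of TUBA1B, 30.8% occurred in TUBA1A and 22.2% in the pseudogene TUBAP2, while 54.4% of those of TUBB2A occurred in TUBB2B. The base means of these 4 genes are therefore uncertain, though the shares of windows do not give the number of reads left out. TUBA1B had the second highest base mean although only 53.5% of the windows at its end were its own. The order of TUBB and TUBA1B, the shares within each family and the alpha to beta ratio carry the same uncertainty.

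TUBB3 differed from the other members in this respect. Of its windows, 1.13% occurred in no other gene, and ENSG00000198211, a protein-coding gene on the same strand of chromosome 16, covered 99.0% of its last 500 exonic bases. TUBB3 lies from 89921392 to 89938761 on the plus strand. It was the only member with any part of its last 500 bases under another gene on the same strand. ENSG00000198211 had no value in the gene table. Whether the base mean of 0.239 stands for little TUBB3 mRNA or for reads left uncounted under this overlap cannot be told apart.

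**Figure D4:**
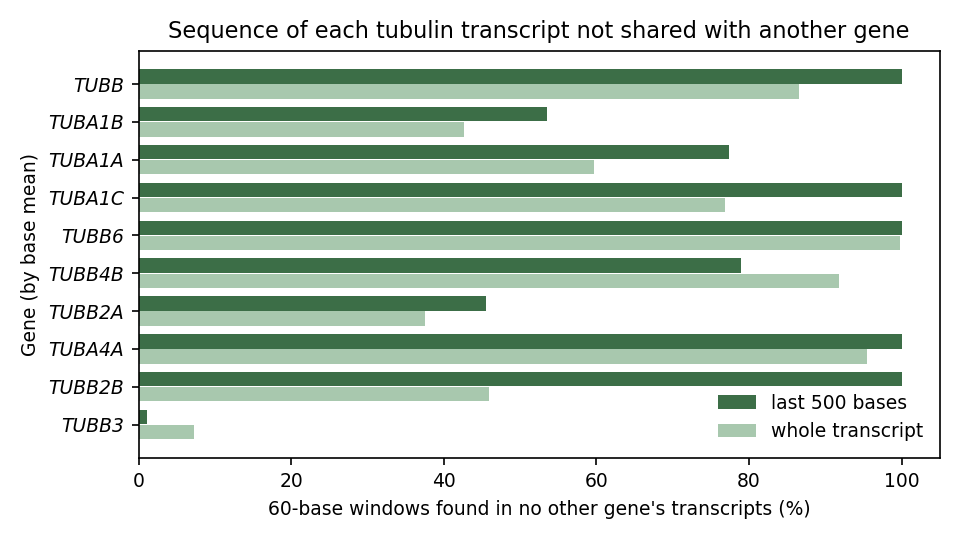
Share of 60-base windows of each tubulin transcript that occur in the transcripts of no other gene, in percent, for the last 500 bases (dark) and for the whole canonical transcript (light), with genes in order of base mean. TUBB3 has 1.13% of such windows in its last 500 bases, against 45.6% to 100% in the other 9 genes.

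The remaining genes of the tubulin pathway were described from lists that follow the life of the protein. In the folding list, which holds the cytosolic chaperonin that folds both tubulins, the prefoldin complex that brings them to it and the cofactors that join alpha to beta, all 20 genes had a value and the median base mean was 459. CCT2 was the highest at 1661, followed by TBCB, a cofactor that binds alpha-tubulin, at 1638 (rank 401), CCT6A at 1427 and CCT4 at 1183. TBCE, a cofactor that also acts on alpha-tubulin, was the lowest at 4.38. Whether reads can be assigned to a single gene was checked only for the tubulin isotype members, not for the genes of these lists. The folding list lay above the table's median base mean in 19 of 20 genes.

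Microtubules are nucleated from gamma-tubulin and its ring complex. Of the gamma-tubulins, TUBG1 had a base mean of 360 and TUBG2 of 174. TUBE1 and TUBD1, the centriolar epsilon- and delta-tubulins, had 17.1 and 10.8. In the ring complex list, the small subunit MZT1 was the highest at 1635, followed by MZT2B at 112, TUBGCP4 at 80.0 and NEDD1, which anchors the complex, at 77.6. TUBGCP6 was the lowest at 11.5.

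The feedback factor TTC5 had a base mean of 109, SCAPER, which it recruits, 96.4, and the CCR4-NOT subunits CNOT11 and CNOT10 had 112 and 2843. Among 15 genes in the list for tubulin modification, 11 exceeded the table's median. AGTPBP1, which removes glutamates from the tails, was the highest at 283, followed by the deacetylase SIRT2 at 240, the ligase TTL at 233 and the glutamylase TTLL7 at 197. VASH1, a vasohibin that removes the final tyrosine of alpha-tubulin, was the lowest at 13.5.

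Of 20 genes for microtubule-binding proteins, 16 had a base mean of at least 5. MAPRE1, which tracks growing plus ends, was the highest at 2400, followed by MAP1B at 1550, the plus-end protein CLIP1 at 872 and CLASP1, which stabilizes plus ends, at 790. TPPP was the lowest at 0.565. The list held both high and near-zero genes, and MAPT, which encodes tau, had 1.06. Of the 11 genes for destabilizing and severing proteins, 10 had a value. STMN1, which encodes the dimer-binding protein stathmin, was the highest at 3294, followed by STMN3 at 397, the depolymerizing kinesin KIF2A at 258 and the severing factor FIGN at 249. STMN2, a stathmin of neurons, was the lowest at 0.303.

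**Figure D5:**
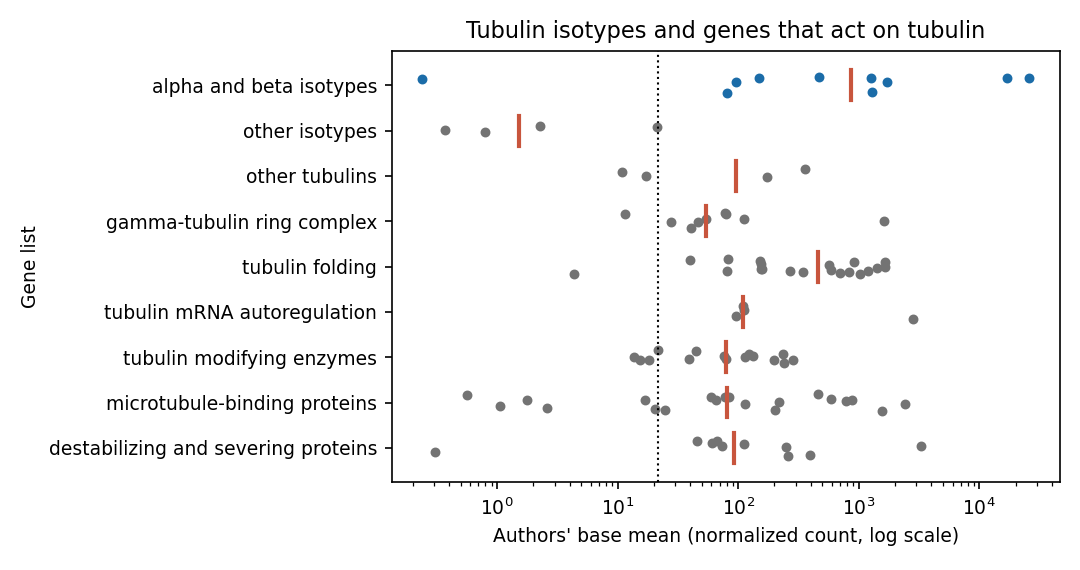
Authors' base mean, on a log axis, of each gene in the tubulin isotype list (blue) and in 8 further lists of genes that act with tubulin (grey), with the median of each list as a red bar and the median of the whole table, 21.8, as a dotted line. Points are spread vertically for legibility only; the medians are 867 for the 10 isotypes, 459 for the folding list and 54.2 to 111 for the other lists apart from the other isotypes, at 1.53.

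The cell type label was checked against markers. Of 11 podocyte markers, 9 had a value, and ACTN4, VIM and CD2AP, which other cells also use, were at 14320, 19062 and 929. The more specific markers were low, with SYNPO at 22.8, PODXL at 15.3, WT1 at 6.21 and PTPRO at 0.333. NPHS1, which encodes nephrin, had no value in the gene table. Markers of endothelium, leukocytes, proximal tubule and mesangium reached at most 4.14 among the 6 with a value, and of the epithelial markers EPCAM had 76.3 and CDH1 0.546. The name podocyte is used as in the labels.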

How the data were processed

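Per the labels, the authors used Trim Galore 0.4.5 and cutadapt 1.18 for trimming, mapped the reads to GRCh38 with STAR 2.7.5a, counted them per gene with HTSeq 0.11.0 and compared the groups with DESeq2 1.22.0 in R 3.5.3. They deposited a table of 20745 genes. Its base mean is a signal that the authors made by dividing counts by size factors and averaging over all libraries in their fit, whose number the table does not give. Its other 5 columns hold the authors' comparison (fold change, standard error, Wald statistic and p-values) and were not used. With no value per culture, no test was made, and the depth per sample is unknown.

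From the base means, sums, shares, ranks and levels per kb of exonic length (union of exons) were computed with Python 3.11.15, NumPy 2.4.6 and pandas 2.3.3, and identities from global alignments with Biopython 1.88 (match 1, mismatch -1, gap opening -3 and extension -0.5). Figures were drawn with matplotlib 3.10.9. Positions and sequences come from GENCODE 44 on GRCh38, a later annotation than the authors' Ensembl 95, and 20599 of the 20745 identifiers matched. Functions were tested on simulated data. Groups follow the sample titles.

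The members and lists were chosen with earlier results of these data known. The genes named are the 10 members, the other isotypes, and from each pathway list the 4 highest and the lowest. TUBAP2 and MAPT were named after their values were seen. Protein identity was not computed, and coding sequences were compared instead. Some sequences and genes are not reported here.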

Additional observations from a re-analysis of the deposited data

How the results depend on the processing

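No paired analysis was possible because the table used here gives only means over libraries. Leaving out replicates and refits with edgeR or DESeq2 were not run for that reason. The protein alternative was not run either, and the windows of the whole transcript and the coding sequences without their ends were chosen after seeing the data.

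Per kb of exonic length, TUBA1B held 86.2% of the alpha sum, TUBB held 91.1% of the beta sum, the alpha to beta ratio was 0.791 and 8 of the 10 members kept their place. With other isotypes and pseudogenes counted in, TUBB held 92.9% and the ratio was 0.721. None of these settings allows for reads of TUBA1B that could not be assigned, or uses the length of the canonical transcript. The median member lay above 91.2% of the genes whose base mean was 5 or more and above 92.0% of protein-coding genes. Without mitochondrial genes the members took 1.17% of the sum. Over whole transcripts, the share of windows found in no other gene was lower for 8 members and higher for 2, and moved by over 1.5 times for TUBB2B, from 100% to 45.9%, and TUBB3, from 1.13% to 7.29%. Depth limits none of the shares directly, but low base means such as that of TUBB3 rest on few reads.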
